A study of Mus musculus with 6 samples.

Results

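Interferon regulatory factors (IRFs) and signal transducers and activators of transcription (STATs) are the transcription factors through which cells read interferons and related cytokines. Of these families 8 genes are described here, Irf1, Irf2, Irf3, Irf5, Irf7, Irf9, Stat2 and Stat3. They were taken by gene symbol from a table of 24062 genes, all 8 were present, and all 8 passed the filter on low counts that left 14090 genes for testing. The RNA came from mouse embryonic fibroblasts of the C57BL/6 strain, primary connective tissue cells. In 3 libraries (p27 OE) the cells had received a lentivirus that overexpresses p27, a brake on cyclin-dependent kinases that the gene Cdkn1b encodes. These cells were harvested on day 4, and the labels call them non-senescent. The other 3 libraries (EV control) were also taken on day 4. EV is not spelled out in the labels, its titles alone mention dataset 10, and the protocol text on the lentivirus is the same for all 6. The comparison sets the transcriptome of p27 OE against that of EV control on day 4.

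In the textbook pathway, type I interferon binds a receptor whose Janus kinases phosphorylate STAT proteins. STAT2 and IRF9 act in the complex ISGF3, which binds interferon-stimulated response elements (ISRE) and switches on antiviral genes, Irf7 among them. IRF3 and IRF7 are activated by kinases below the sensors of foreign nucleic acid and drive interferon genes themselves. IRF1 is an activator and IRF2 a largely antagonistic factor at overlapping sites, IRF5 acts below Toll-like receptors mainly in myeloid cells, and STAT3 is the main effector of the gp130 cytokines such as LIF and IL-6. Fibroblasts hold a low, tonic interferon signal that sets the resting levels of several of these genes.

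Total counts ran from 34920728 to 52098220 per library, of which 15445 to 25203 fell in the 8 genes. Replicates differed by more than sampling noise, and the labels do not say whether they are separate cultures, so p-values measure only the spread between these libraries. The X-inactivation RNA Xist stood at 317 and 477 CPM (counts relative to the TMM-scaled library size) in EV control 1 and p27 OE 1 and below 10 CPM in the other 4. The Y-linked gene Ddx3y was at most 0.056 CPM in the libraries numbered 1 and at 54.3 to 65.5 CPM in the others, so the spread between number 1 and the rest includes a difference in the sex of the embryos. Both libraries numbered 1 were separated from the other 4 along the first principal component, which held 58.9% of the variance. Cdkn1b ranged from 49.9 to 52.2 CPM in EV control. With p27 OE it reached 419, 978 and 460.0 CPM in libraries 1, 2 and 3, so the overexpressed gene was highest in p27 OE 2. Although the groups did not overlap, neither edgeR fit called Cdkn1b. Its log2 fold change was 3.48 ± 0.42 with pairing (adjusted p 0.0873) and 3.60 ± 0.35 without (adjusted p 0.180). Summed fibroblast markers, Col1a1 and Vim among them, reached 62010 to 67710 CPM in the controls, against 67500 to 70270 CPM with p27 OE. Of 13 such markers the collagen gene Col5a1 rose (paired edgeR log2 fold change 0.37 ± 0.06, adjusted p 0.00450), the receptor gene Pdgfra (-0.48 ± 0.06, 0.000575) and the proteoglycan gene Lum (-0.23 ± 0.06, 0.0430) fell, and the others did not pass. Of 11 endothelial markers 7 were tested. Emcn, with 32 to 86 counts per library, rose (0.93 ± 0.24, adjusted p 0.0353), and Flt1 and Tek were next at adjusted p 0.123 and 0.160. Erg, Vwf and Kdr had estimates below 0 (-0.24 ± 0.11, -0.54 ± 0.47 and -0.08 ± 0.25), not called. Pecam1, Cdh5, Tie1 and Cldn5, not tested, had at most 6 counts in any library. Dropping either number 2 or number 3 left no endothelial marker called, whereas dropping number 1 left 1, higher. No epithelial marker passed, Cldn4, Krt18 and Krt8 having the smallest p. Of all tested genes the paired fit called 3.8% higher and 3.63% lower. The part of these markers in the results was not tested. No lymphocyte or dendritic cell marker of 14 had enough counts to be tested, and these summed to at most 0.820 CPM in any library.

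The promoters of the genes that changed, and of those that hold a response element, are shown first, since the 3 genes that fell do not share an element in this window. RefSeq promoters (GRCm38.p6, 250 bases before to 50 after each start) were searched on both strands for an ISRE core, which is GAAA, any 2 bases and GAAA, and for a STAT site (GAS), TTCNNNGAA. The matches found in these genes do not overlap. Capitals mark matches, each sequence runs 5′ to 3′ on the gene's strand, and each ends before a RefSeq start site. RefSeq starts can differ from the gene spans given below, which are from GENCODE. The Irf9 stretch lies within the span of its gene, and the Irf7 stretch lies partly within its own. Stat2 holds an ISRE match on the reverse strand, 212 bases before its start. Irf1 holds a GAS match 81 bases before a start, while the promoter of another Irf1 start holds no match. Irf2 holds both elements. Irf7 and Irf9 hold neither, and the last 100 bases before a start of each are given for comparison.
Stat2, chr10:128270251-128270310, forward strand: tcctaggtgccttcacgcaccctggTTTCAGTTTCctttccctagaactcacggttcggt
Irf1, chr11:53769899-53769957, forward strand: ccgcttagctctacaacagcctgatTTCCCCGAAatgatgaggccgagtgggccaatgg
Irf2, chr8:46739495-46739554, forward strand: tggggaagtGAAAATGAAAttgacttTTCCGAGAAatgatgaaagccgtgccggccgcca
Irf7, chr7:141266425-141266524, reverse strand: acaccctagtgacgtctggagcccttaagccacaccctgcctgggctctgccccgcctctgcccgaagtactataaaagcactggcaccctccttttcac
Irf9, chr14:55603885-55603984, forward strand: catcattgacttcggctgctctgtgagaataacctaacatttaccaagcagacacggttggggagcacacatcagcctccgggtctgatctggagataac
Of all 32851 RefSeq promoters, 3.44% hold the ISRE core and 8.3% the GAS. A match is a description of the letters only, and a window without one says nothing of the factor.

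Irf7, Stat2 and Irf9 fell in p27 OE in the paired fit, which compares libraries of the same number, and the other 5 genes did not pass its test. Thus 3 of 8 were called lower and 0 higher, where 3.63% of all tested genes were called lower, 3.8% higher and 7.43% in either direction. The 8 were chosen with earlier results of these data known, so this count does not test for an excess over that share. With upper-quartile scaling the paired fit called 483 genes higher and 736 lower, as against 535 and 512. The falls were 1.71-fold for Irf7, 1.28-fold for Stat2 and 1.28-fold for Irf9. The planned edgeR fit without pairing called 0 of the 8, and 0 of all 14090 genes. In it 2 of the 8, Irf7 and Stat2, had an unadjusted p under 0.05, as had 7.22% of all genes, and DESeq2 and limma-voom without pairing also called 0 of the 8, where DESeq2 called 0.671% of the genes it adjusted. The plot of the 8 genes in each library shows the levels behind these calls.

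**Figure D1:**
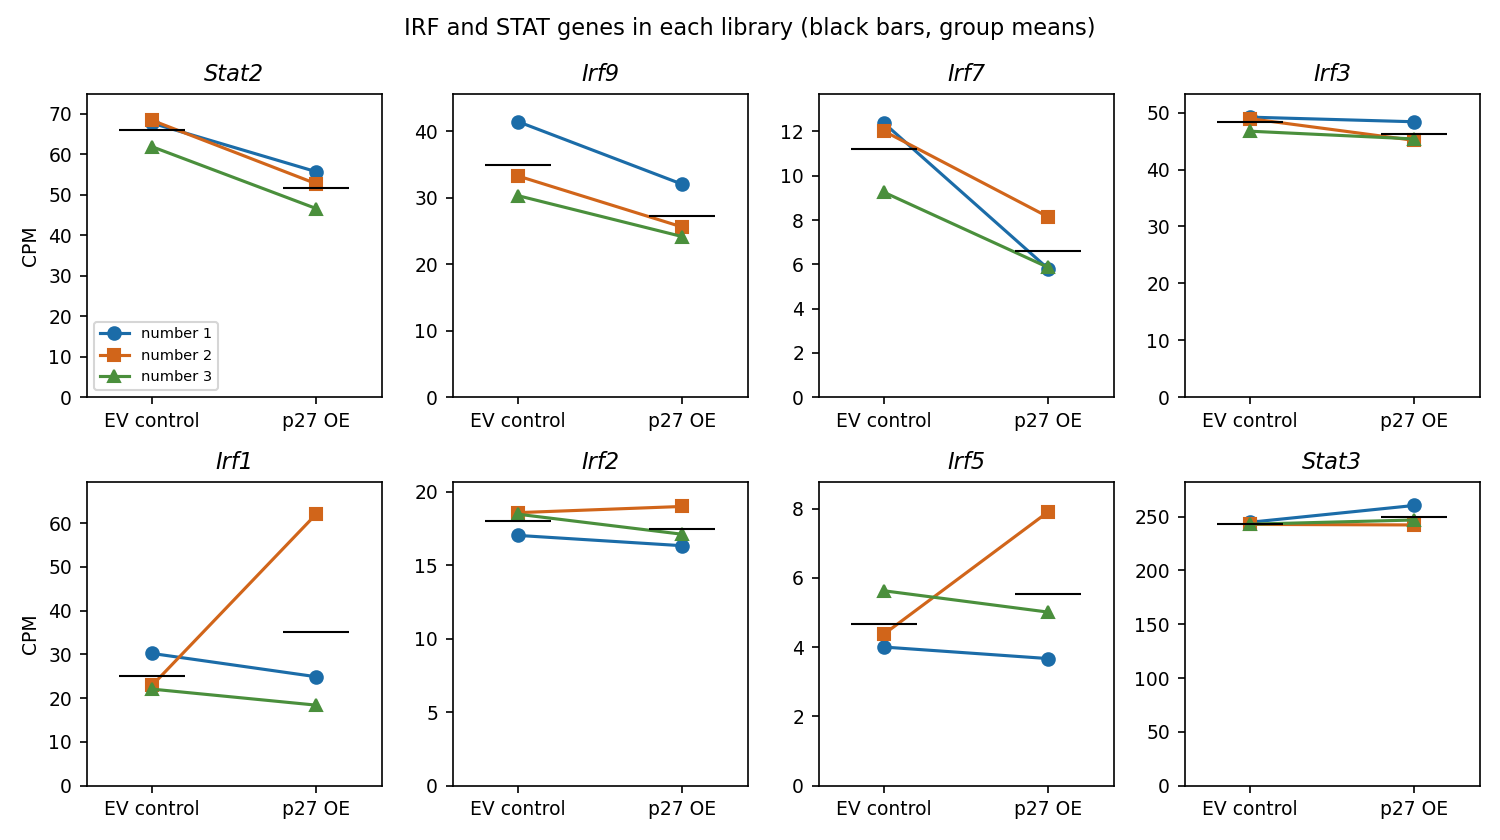
CPM of each of the 8 genes (y axis, from 0) in EV control and p27 OE, with a line joining libraries of the same number and black bars for group means. The lines of Stat2, Irf9 and Irf7 all slope down, those of Irf3 and Stat3 are nearly level, and p27 OE 2 stands alone for Irf1 at 62.1 CPM and for Irf5 at 7.90 CPM.

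Irf7, the factor that amplifies the interferon response, stood at 12.4, 12.0 and 9.25 CPM in the controls numbered 1, 2 and 3, against 5.80, 8.14 and 5.86 CPM with p27 OE. Every p27 OE library lay below every EV control library, as did 8.28% of all tested genes, while 6.61% lay wholly above and 14.9% did either. The paired log2 fold change was -0.77 ± 0.13 (SE, n = 3 pairs; edgeR adjusted p 0.00327), with log2 ratios of -1.09, -0.56 and -0.66 in numbers 1, 2 and 3. Without pairing it was -0.76 ± 0.19 (adjusted p 0.651). Irf7 occupies 141262706 to 141266481 of chromosome 7, reverse strand (GRCm38), and its values rest on 221 to 668 counts per library.

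Stat2 encodes the subunit that gives ISGF3 its activation domain. Its level was 67.7, 68.4 and 61.9 CPM in the controls numbered 1, 2 and 3, against 55.7, 52.7 and 46.6 CPM with p27 OE. The groups did not overlap. The paired log2 fold change was -0.35 ± 0.06 (n = 3 pairs, edgeR adjusted p 0.00410), and without pairing it was -0.35 ± 0.09 with an adjusted p of 0.651. Stat2 lies on chromosome 10 from 128270559 to 128292849, forward strand.

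Irf9, the DNA-binding subunit of ISGF3, was at 41.5, 33.3 and 30.3 CPM in the controls numbered 1, 2 and 3, against 32.1, 25.6 and 24.2 CPM with p27 OE. Here the groups overlapped, since p27 OE 1 lay above EV control 3. Within numbers the fall was even, with log2 ratios of -0.37, -0.38 and -0.33. The paired log2 fold change was -0.36 ± 0.07 (edgeR adjusted p 0.00746, n = 3 pairs) against -0.36 ± 0.16 (adjusted p 0.685) without pairing. Irf9 lies on chromosome 14 from 55603571 to 55610030, forward strand.

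Irf7, Stat2 and Irf9 were also called without the libraries of any one number. In those fits, which rest on 2 pairs, the largest adjusted p was 0.00588 for Irf7, 0.0470 for Stat2 and 0.0404 for Irf9. Among all tested genes 848 of 14036 were called lower without number 1, 425 of 14319 without number 2 and 106 of 14205 without number 3.

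Irf3, the constitutive partner of Irf7 below the nucleic acid sensors, was at 49.2, 48.9 and 46.7 CPM in the controls numbered 1, 2 and 3, against 48.4, 45.1 and 45.4 CPM with p27 OE. The paired log2 fold change was -0.06 ± 0.06 (edgeR adjusted p 0.598). The ratio of Irf7 to Irf3 counts within a library does not depend on scaling. It was 0.251, 0.245 and 0.198 in the controls 1, 2 and 3, against 0.120, 0.180 and 0.129 with p27 OE. The groups did not overlap, and the difference in mean log2 ratio was -0.71 (two-sided exact permutation p 0.1, the smallest that 3 against 3 libraries allow).

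Stat3 was the steadiest of the 8. It stood at 245, 243 and 243 CPM in the controls numbered 1, 2 and 3, against 260.4, 242 and 247 CPM with p27 OE, with a paired log2 fold change of 0.04 ± 0.05 (edgeR adjusted p 0.729). The ratio of Stat2 to Stat3 counts was 0.277, 0.282 and 0.255 in the controls, against 0.214, 0.218 and 0.189 with p27 OE. The groups did not overlap, and the difference in mean log2 ratio was -0.39 (two-sided exact permutation p 0.1). For Irf9 over Irf2 the ratio was 2.44, 1.79 and 1.64 in the controls and 1.96, 1.35 and 1.41 with p27 OE. There the groups overlapped, and the difference was -0.31 (two-sided exact permutation p 0.3). These are the 3 ratios computed, and the Benjamini-Hochberg adjusted permutation p over them was 0.15, 0.15 and 0.3 for Irf7, Stat2 and Irf9. Each ratio sets a gene called lower in the paired fit over one of the 8 that was not called. The permutation does not use the pairing, and with a floor of 0.1 it could not reach the threshold of 0.05. No conclusion is drawn from it. Irf2, the antagonist of Irf1, was at 17.0, 18.6 and 18.5 CPM in the controls, against 16.3, 19.0 and 17.1 CPM with p27 OE (paired -0.05 ± 0.08, adjusted p 0.782).

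**Figure D2:**
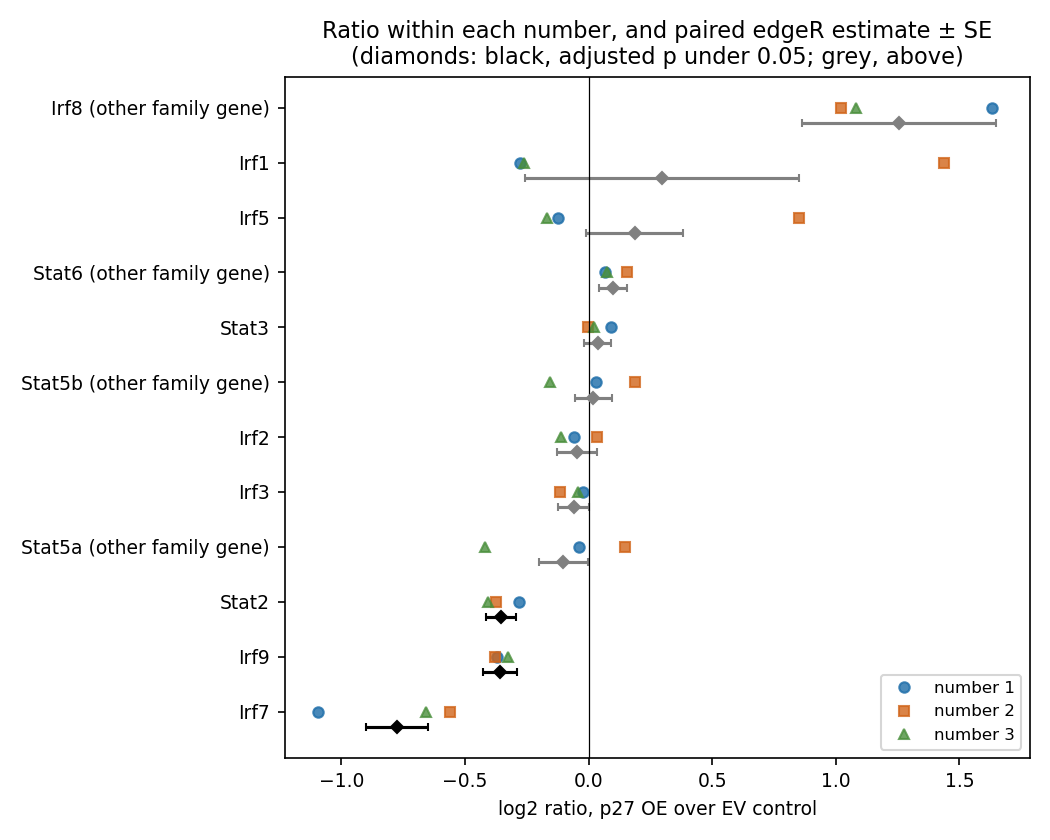
log2 ratio of p27 OE to EV control (x axis) within each number, as coloured points, for the 8 genes and Irf8, Stat5a, Stat5b and Stat6, with the paired edgeR estimate ± SE as a diamond below, black where the adjusted p is under 0.05. The points of Irf7, Irf9 and Stat2 all lie below 0, whereas Irf1 and Irf5 have 1 point far above 0, from number 2, and the other 2 below.

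Irf1 did not pass the test, and 1 library set its mean. It stood at 30.2, 22.9 and 22.1 CPM in the controls numbered 1, 2 and 3, against 24.9, 62.1 and 18.4 CPM with p27 OE. Its log2 ratio was 1.44 in number 2 but -0.28 and -0.26 in numbers 1 and 3. The paired log2 fold change was 0.30 ± 0.55 (edgeR adjusted p 0.819), and without the libraries numbered 2 it was -0.27 ± 0.10 (adjusted p 0.0927). The direction for Irf1 therefore rests on p27 OE 2, the library with the most Cdkn1b.

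The genes nearest to Irf1 in profile over the 6 libraries shared this single high value, which follows from choosing them by that profile. Among 10609 genes averaging 5 CPM or more these were Hilpda and Egln3, both known as targets of hypoxia-inducible factors, and the AP-1 gene Junb. Their root mean square differences from Irf1 were 0.054, 0.15 and 0.17 on the log2 scale, where Irf1 itself varied by 0.57. Hilpda stood at 42.1 CPM in p27 OE 2 and at 13.6 to 21.1 CPM in the other 5 libraries. The gp130 cytokine gene Lif, chosen after its values were seen, was at 96.2 CPM in p27 OE 2 and at 14.9 to 26.9 CPM elsewhere.

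Irf5 was the lowest of the 8 in counts, with 155 to 303 per library. It was at 4.00, 4.38 and 5.62 CPM in the controls numbered 1, 2 and 3, against 3.67, 7.90 and 5.01 CPM with p27 OE, again highest in p27 OE 2. The paired log2 fold change was 0.19 ± 0.20 (edgeR adjusted p 0.618), and -0.14 without the libraries numbered 2. Exons of Tnpo3 on the opposite strand cover 14.1% of the Irf5 exons, and without strand their reads cannot be told apart. For the other members such overlaps reached at most 3.40%. Macrophage markers, from cells rich in Irf5 and Irf8, summed to 60.2 to 74.2 CPM in the controls, against 59.9, 105 and 76.1 CPM with p27 OE. Lyz2 made up the largest part of each sum, at 33.37 to 41.85 CPM in the controls, against 28.63, 53.14 and 39.55 CPM with p27 OE. Its paired log2 fold change was 0.02 ± 0.10 (edgeR adjusted p 0.924). Of 16 macrophage markers 14 were tested, with a median paired log2 fold change of 0.46. Among them 1 estimate was below 0 and 8 genes were higher in all 3 numbers, where 21.8% of all tested genes were. Emr1 rose (0.77 ± 0.20, paired edgeR adjusted p 0.0326) and the others did not pass, where 3.8% of all tested genes were called higher. Cd14 (0.71 ± 0.20, 0.0509) and Cd68 (-0.49 ± 0.17, 0.1001) were next. Cd163, not tested, had 0 counts in all EV control libraries and 2, 3 and 0 in p27 OE 1, 2 and 3. Aif1, also not tested, had 4, 5 and 18 counts in EV control 1, 2 and 3, against 8, 16 and 8 with p27 OE. Without the libraries numbered 2 or 3 no macrophage marker was called, and without those numbered 1, 3 were called higher and 1 lower. In that last fit 893 of all 14036 tested genes were called higher and 848 lower. The part of the macrophage markers in the values of Irf5 and Irf8 was not tested. In bulk RNA a change in the number of cells of a type and a change in RNA per cell cannot be told apart.

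Of other genes of these families, Irf8, the myeloid factor, was present at 10 to 15 counts in EV control and 22 to 34 in p27 OE, without overlap (paired log2 fold change 1.26 ± 0.39, edgeR adjusted p 0.0681). Stat6, the interleukin-4 effector, differed by 0.10 ± 0.05 and Stat5a and Stat5b by -0.10 ± 0.10 and 0.02 ± 0.07, none of them called. Stat4 had a mean of at most 0.327 CPM, and Irf4 had 2 counts in all.

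Levels between genes were compared per length, as RPKM. In EV control the order of the 8 was Stat3 (53.9 ± 0.249 RPKM, mean ± SD, n = 3), Irf3 (23.8 ± 0.667), Stat2 (15.02 ± 0.816), Irf9 (14.2 ± 2.35), Irf1 (11.7 ± 2.09), Irf2 (7.21 ± 0.345), Irf7 (5.85 ± 0.892) and Irf5 (2.08 ± 0.379). The libraries of Stat2 and Irf9 overlapped, as did those of Irf9 and Irf1, so the order of these neighbours lies within their spread. In p27 OE Irf7 was at 3.44 ± 0.696 RPKM and Irf5 at 2.47 ± 0.966, and their ranges overlapped, which they did not in EV control.

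**Figure D3:**
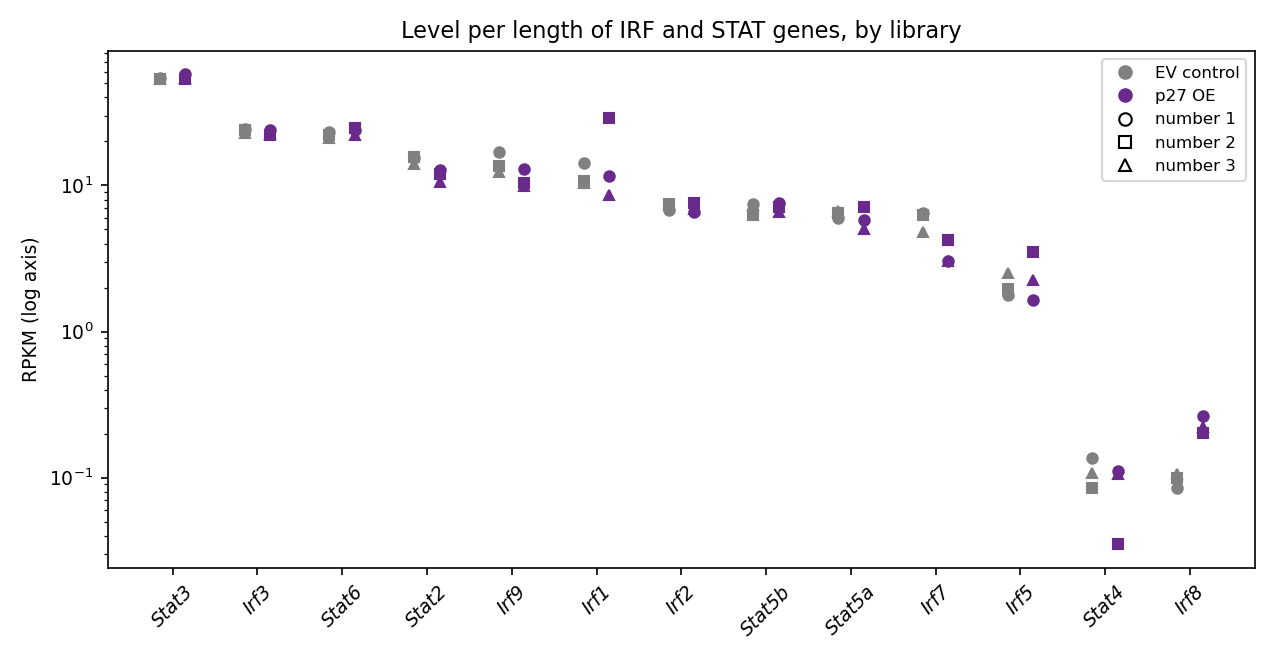
RPKM (y axis, log scale) of the 8 genes and of Irf8, Stat4, Stat5a, Stat5b and Stat6 in each library, grey for EV control and purple for p27 OE, with marker shapes for the numbers and genes ordered by the EV control mean. Stat3 is highest at 53.7 to 57.7 RPKM, Stat4 and Irf8 lie below 1 RPKM, and the purple points of Irf7 lie below its grey ones.

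Upstream of the factors no gene of the receptor list was called. All 10 interferon receptor and Janus kinase genes were tested, and their median paired log2 fold change was -0.01, as against -0.001 for all tested genes. The 3 with the smallest p were Ifngr2, a subunit of the interferon-gamma receptor (0.17 ± 0.09, adjusted p 0.289), the kinase gene Jak1 (0.10 ± 0.06, 0.313) and the type I receptor gene Ifnar2 (-0.10 ± 0.06, 0.352). Interferon genes were at or near 0 counts. Of 14 such genes 11 had no count in any library, Ifnb1, named for its role, had 3 in all, and only Ifnz was tested, with 6 to 16 counts per library. Thus at this depth a change in interferon transcripts was not detectable.

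Of 20 tested sensors, adaptors and kinases that lead to IRF3 and IRF7, none was called (median 0.02). The RNA sensor gene Ifih1 had the smallest p of them (-0.35 ± 0.13, paired edgeR adjusted p 0.129) and was called lower without the libraries numbered 2 (adjusted p 0.0139). Tlr7 and Dhx58 were next, with log2 fold changes of 0.96 and -0.33 and adjusted p of 0.261 and 0.310. Tbk1 and Ikbke, the kinase genes themselves and named for that role, differed by 0.02 each.

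Among 12 tested gp130 cytokines and receptors Il11ra1, the interleukin-11 receptor gene, fell (-0.30 ± 0.06, paired edgeR adjusted p 0.00740), where 3.63% of all tested genes were called lower. The others did not pass, and without the libraries numbered 3 none of the list was called. Il6 averaged 0.554 ± 0.134 CPM in the controls against 1.06 ± 0.296 CPM with p27 OE (SD, n = 3; edgeR adjusted p 0.0909) and the oncostatin M receptor gene Osmr differed by 0.16 ± 0.06 (0.112). Of 22 negative regulators and partners, Socs3, a feedback inhibitor of gp130 signalling and a STAT3 target, fell in each number. It stood at 83.5, 54.2 and 52.5 CPM in the controls numbered 1, 2 and 3, against 67.4, 35.0 and 39.7 CPM with p27 OE (-0.44 ± 0.07, adjusted p 0.00276). The other genes of this list did not pass, and of all tested genes 3.63% were called lower. Usp18, which removes ISG15 and restrains the type I receptor, differed by -0.75 ± 0.21 (adjusted p 0.0553), and the phosphatase gene Ptpn1 by 0.18 ± 0.06 (0.103). Without the libraries numbered 1 the paired fit called 3 genes of this list (1 higher), and 2 genes, both lower, when number 2 was left out. Among all genes the same fits called 893 higher and 848 lower without number 1, and 503 higher and 425 lower without number 2.

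Among target genes of these factors few passed the test. Of 37 tested ISGF3 targets Bst2 and Oasl2 fell and none rose, with a median paired log2 fold change of -0.33. Of all tested genes the paired fit called 3.63% lower and 3.8% higher. Bst2, which tethers budding virions, stood at 64.3, 83.5 and 79.1 CPM in the controls numbered 1, 2 and 3, against 39.8, 59.7 and 46.2 CPM with p27 OE (-0.65 ± 0.07, edgeR adjusted p 0.000132). Oasl2, of the oligoadenylate synthetase family, was at 15.5, 11.1 and 9.79 CPM and at 8.11, 9.94 and 5.88 CPM in the same order (-0.61 ± 0.14, adjusted p 0.0232). In all, 17 of the 37 were lower in each of the 3 numbers and 2 higher, where 23.7% and 21.8% of all tested genes were. With upper-quartile scaling the paired fit called 5 of them lower. Some genes stand in 2 lists, as Usp18, Ifih1 and Dhx58 do here.

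The values of these targets within each number were as follows. The median log2 ratio of the 37 was -0.54, -0.07 and -0.38 in numbers 1, 2 and 3, and 33, 19 and 30 of them were below 0, as against 51.4%, 50.8% and 50.3% of all tested genes. Without the libraries numbered 2 the paired fit called 11 lower and 0 higher, without those numbered 1 it called 1 lower and 3 higher, and without those numbered 3 it called 1 lower, Bst2. The 11 included Ifit3 (-1.49 ± 0.17), Ifit1 (-1.08 ± 0.15) and Isg15 (-0.82 ± 0.10), and the 3 were Ifi47, Parp14 and Samd9l, all named after their values were seen. Of all 14319 genes tested without number 2, 425 were called lower and 503 higher. Without number 1 these were 848 lower and 893 higher of 14036, and without number 3, 106 lower and 224 higher of 14205. Ifit3, an RNA-binding antiviral gene, was at 11.2, 9.44 and 9.61 CPM in the controls, against 4.44, 8.87 and 2.97 CPM with p27 OE. In number 2 the log2 ratio was -0.38 for Stat2 and for Irf9, and the median of the 37 targets was -0.07. Whether the numbers differ was not tested, nor was any relation between the targets and the levels of Stat2 and Irf9.

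**Figure D4:**
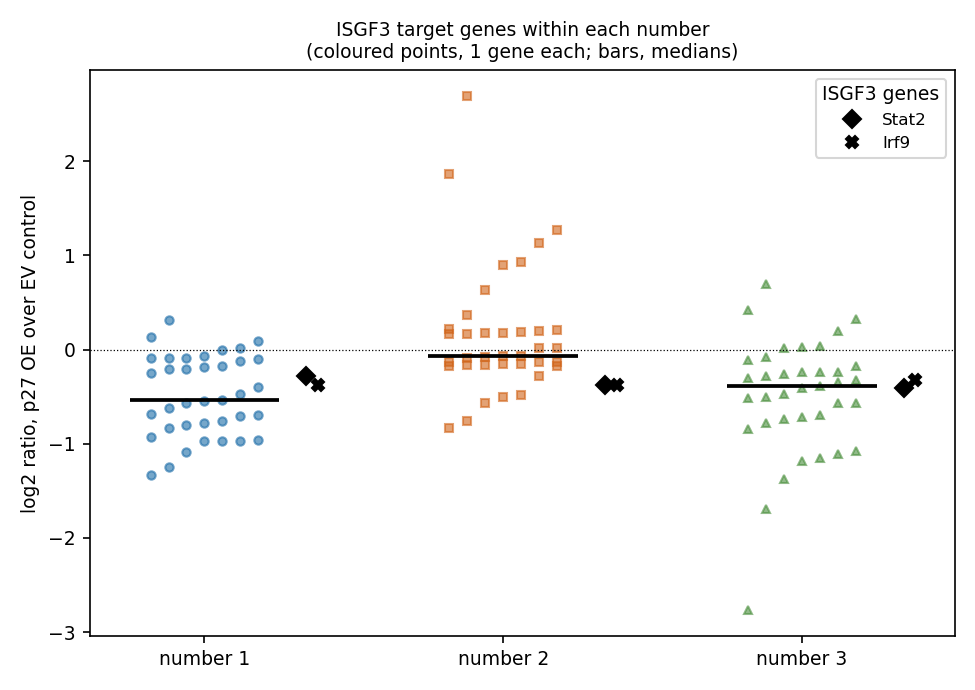
log2 ratio of p27 OE to EV control (y axis) for the 37 tested ISGF3 target genes within each number, with bars at the medians and black symbols for Stat2 and Irf9. The medians are -0.54, -0.07 and -0.38, Stat2 and Irf9 lie below 0 in each number, and number 2 holds the targets farthest above 0.

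Of 21 tested genes of a list of guanylate-binding, immunity-related GTPase, chemokine and antigen-processing genes, none was called (median -0.09). The smallest p belonged to the GTPase gene Igtp (-0.38 ± 0.12, paired edgeR adjusted p 0.0623), the peptide transporter gene Tap1 (-0.26 ± 0.09, 0.0895) and Iigp1 (-0.92 ± 0.33, 0.118). With upper-quartile scaling Igtp was called (adjusted p 0.0478). Without the libraries numbered 2, 5 were called lower, and without those numbered 1, 1 lower and 1 higher. The counts of all genes in these fits are given with the ISGF3 targets.

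Of 21 tested STAT3 targets 3 rose and 1 fell, with a median of 0.16 on the log2 scale. Of all tested genes 3.8% were called higher and 3.63% lower. Myc rose by 0.56 ± 0.06 (paired edgeR adjusted p 0.000220), Ccnd1, the cyclin D1 gene, by 0.40 ± 0.06 (0.00127) and Timp1, a metalloprotease inhibitor gene, by 0.45 ± 0.09 (0.0189), while Socs3 fell. All these genes have other regulators as well. The counts were also 3 higher and 1 lower without the libraries of any one number, with the growth factor gene Vegfa in place of Timp1 without those numbered 3.

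**Figure D5:**
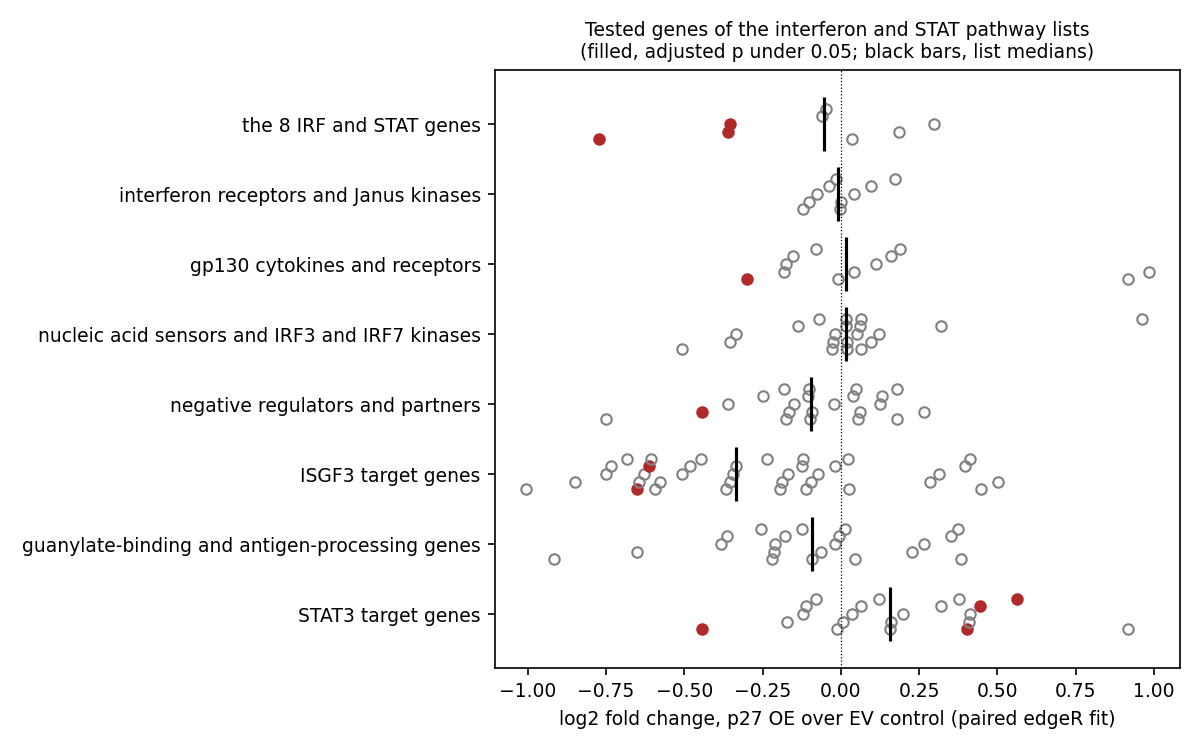
Paired edgeR log2 fold changes (x axis) of the tested genes in 8 lists of the pathway, 1 point per gene, filled where the adjusted p is under 0.05, with black bars at list medians. The ISGF3 targets have the lowest median, -0.33, the receptors and kinases lie close to 0, and the STAT3 targets have a median of 0.16.

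The genes nearest in profile to those that fell came from several functions. For Irf7 they were the aldolase gene Aldoc (-0.61 ± 0.08), the retinoic acid-binding protein gene Crabp1 (-0.65 ± 0.06) and Oasl2, at root mean square differences of 0.18, 0.19 and 0.20 where Irf7 varied by 0.44. For Stat2 they were Acd, Rnf122 and the linker histone gene H1f0 (0.040, 0.049 and 0.056, Stat2 varying by 0.20), and for Irf9 Wdr34, Rin2 and Dcps (0.041, 0.044 and 0.047, Irf9 varying by 0.26). For Stat3 the nearest was Csnk1d, for Irf3 Psma4, for Irf2 Ubl5 and for Irf5 Lingo1.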

How the data were processed

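RNA of 6 mouse embryonic fibroblast libraries was prepared with a TruSeq kit that does not mark strand, per the labels' protocols. The authors deposited raw whole-number counts for 24062 gene symbols. The mm10 build is named per the submitters' processing notes, as are featureCounts 1.4.6 (Subread), Bowtie2 2.2.6 and TopHat2 2.0.14, without their roles. Not given in the sources used here are the annotation, the strand setting and how multi-mapping reads were counted.

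Libraries were grouped by title. Genes were kept with filterByExpr (minimum count 10, minimum total 15), scaled by TMM, and tested in edgeR 4.0.16 (robust quasi-likelihood, two-sided, Benjamini-Hochberg over the 14090 tested genes, threshold 0.05) in R 4.3.3. A fold change is on the log2 scale, p27 OE minus EV control, and its SE comes from the F statistic. The planned fit has no term for the replicate number. A second planned fit has the number as a block. Deviations of same-numbered libraries from their group means correlated at 0.77, 0.42 and 0.54, each above 0.1, so the numbers in the titles were taken to pair the libraries and the blocked fit is given throughout as the paired fit. For numbers 2 and 3 libraries of different numbers correlated at 0.39 and 0.41, so there the check separates the pairs weakly. Xist was at 5.93 and 9.58 CPM in EV control 2 and p27 OE 2 and at 0.601 and 0.504 CPM in EV control 3 and p27 OE 3. CPM uses TMM-scaled library sizes. RPKM divides CPM by the length in kilobases of the longest APPRIS principal transcript in GENCODE vM21 (GRCm38, the assembly mm10 names). Other settings were DESeq2 1.42.0, limma-voom (limma 3.58.1), RLE and upper-quartile scaling, other filters and leaving out libraries. The fits were also run on simulated counts. Their means were set by number, so that run cannot show whether the numbers pair the libraries.

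The 8 genes and all gene lists were chosen with earlier results of these data known. The named genes are the 8, other IRF and STAT genes (some are not reported here), and for each list the 3 genes with the smallest paired p and the called gene with the largest change. For each of the 8, the 3 genes of at least 5 CPM nearest in profile were also taken. Genes outside this rule were named for their role or after their values were seen. Promoters are from RefSeq (GRCm38.p6). All 8 genes matched the table.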

Additional observations from a re-analysis of the deposited data

How the results depend on the processing

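The paired results were close under other settings. With the replicate block the number of genes called was 1047 (main scaling), 1042 (RLE), 1219 (upper quartile), 1018 (a floor of 1 CPM in 3 libraries), 830 (DESeq2) and 829 (limma-voom), and 3 of the 8 genes were called in each, all lower. Without both libraries of a number the paired fit called 330 to 1741 genes (928 without number 2) and again 3 of the 8. Without the block the count was 0 except for 89 with DESeq2 and 1 with no filter, and leaving out single libraries gave 0 to 1. None of these unpaired fits called any of the 8. In them Irf7 had its smallest adjusted p, 0.0587, with DESeq2. Without single libraries Irf1 ran from -0.21 (without p27 OE 2) to 0.79 and Irf5 from -0.10 (without p27 OE 2) to 0.47, and without both libraries numbered 2 they were -0.27 and -0.14. Irf2 was 0.0022 without p27 OE 1, its sign being within error. The other genes of the 8 kept their direction under each setting. Counts of list genes without both libraries of a number were added after the data were seen. Paired fits without 1 number rest on 2 pairs. At this depth Irf5 rests on 155 to 303 counts per library and Irf7 on 221 to 668.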
